A study of Homo sapiens with 9 samples.

Results

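Expression of 26 genes of cholesterol synthesis and lipoprotein uptake was examined in SK-MEL-5, a human melanoma cell line with a BRAF mutation, of which 3 subclones were sequenced. The genes were taken by symbol from the deposited count matrix, and all 26 were found among its 60675 genes and among the 18009 genes tested. They comprised 18 enzymes from ACAT2 to DHCR7, 5 regulators (SREBF1, SREBF2, SCAP, INSIG1 and INSIG2) and 3 genes of uptake and transport (VLDLR, MYLIP and STARD4). The subclones SC01, SC07 and SC10 were derived from the parental line by limiting dilution without drug, so each group is 1 clone. Per the labels, these clones had been chosen by their first response to the BRAF inhibitor PLX-4720, and which clone responded in which way is not given in the sources used here. No library had been treated, and each clone was sequenced 3 times, giving 9 libraries. The question was how the genes differed between clones before any drug. Separate cultures are not stated for libraries of the same clone, so every p-value here reflects library-to-library spread alone, possibly of technical origin.

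Animal cells build cholesterol from acetyl-CoA. The mevalonate steps make activated isoprene units, the isoprenoid steps join these into farnesyl diphosphate and squalene, and the sterol steps close the rings and trim lanosterol to cholesterol. The transcription factors SREBP-1 and SREBP-2, encoded by SREBF1 and SREBF2, switch on these genes when membrane sterol is low. SCAP carries them from the endoplasmic reticulum to the Golgi for cleavage, and the INSIG proteins hold SCAP back when sterol is plentiful. Cells also take up lipoproteins through receptors such as VLDLR, which the ubiquitin ligase encoded by MYLIP marks for degradation.

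Counts summed to between 30224066 and 39454087 per library, and single members had from 162 (TM7SF2) to 14629 counts (DHCR7) in a library. Values below are CPM, a gene's counts relative to its library's total, after TMM scaling of that total for composition. SC10 replicate 3 stood apart from the other SC10 libraries, by a chi-square of counts, divided by its degrees of freedom, of 10.5 and 11.6 against them, where those differed by 2.56. The melanocyte markers MITF, PMEL, MLANA, TYR, TYRP1, DCT and S100B were all measured, while SOX10, another defining marker, had 0 counts in every library, where 3 counts correspond to between 0.0773 and 0.0948 CPM. Whether SOX10 was not expressed or its reads were not counted cannot be told from these counts and was not tested. The 8 melanocyte markers, mostly PMEL and DCT, summed to 10875 to 11532 CPM in SC01, 24452 to 24962 in SC07 and 15283 to 15495 in SC10. Single markers did not all follow the sum. TYRP1 fell from 2394 to 1212 to 702 CPM, S100B was also highest in SC01, and MITF and MLANA were highest in SC10. In the same order of clones, 6 fibroblast markers, mostly LUM, summed to 131 to 137, 428 to 489 and 335 to 371 CPM, and 4 endothelial markers to 23.0 to 24.3, 14.3 to 15.5 and 8.34 to 8.92 CPM. Of the endothelial markers, KDR fell (20.8, 5.41 and 3.56 CPM), while VWF was lowest in SC01 (2.82, 9.37 and 4.91 CPM). The sums of 6 immune markers were 0.389 to 0.980, 3.34 to 3.92 and 0.857 to 1.54 CPM. Those of 6 keratinocyte markers, mostly KRT10 and with KRT1 at 0 counts, were 21.9 to 24.3, 23.3 to 23.5 and 24.3 to 27.8 CPM. The part of these markers in the differences below was not tested. In bulk RNA, fewer cells of a kind and less RNA per cell cannot be told apart, nor can a clone be told from the batch its cells were grown or extracted in.

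Members of the pathway changed in both directions. From SC01 to SC07 to SC10, the mevalonate genes MVK, MVD and ACAT2 fell stepwise, while DHCR7, which makes cholesterol from its dehydro precursor, more than doubled. SREBF1 was higher and SREBF2 lower in SC07 and SC10 than in SC01, INSIG1 was lower and INSIG2 higher, and VLDLR was about 3-fold higher. When edgeR's quasi-likelihood F test was taken over the clones, 25 of the 26 genes passed the adjusted threshold of 0.05, and the exception was TM7SF2 (adjusted p = 0.0933). Differences were common in these clones, however, and 76.3% of all genes tested passed the same test. Of the 25 that passed, 11 had their highest mean in SC01 and 10 their lowest, where 31.0% and 31.6% of all genes tested passed with such an order. SC07 was highest for 9 and lowest for 7 of the 25 (20.5% and 20.9% of all genes), and SC10 was highest for 5 and lowest for 8 (24.8% and 23.9%). A stepwise fall with every pair of clones called was found for 5 members, ACAT2, MVK, MVD, CYP51A1 and INSIG1 (19.2% of the 26, and 5.57% of all genes tested). The opposite stepwise order was found for 1 member, DHCR7, and for 7.51% of all genes tested.

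Against SC01, 10 members were higher and 11 lower in SC07, where 62.0% of all genes tested were called, 31.5% higher and 30.5% lower. With total counts as the only scaling, 8 members were higher and 13 lower, and the split of all genes moved from 5675 higher and 5487 lower to 4666 and 6841. In SC10 against SC01, 10 were higher and 11 lower, where 65.9% of all genes were called (33.5% and 32.4%). In SC10 against SC07, 6 were higher and 9 lower, where 47.9% were called (24.8% and 23.0%). The members called were 80.8%, 80.8% and 57.7% of the 26 in the 3 comparisons, with 38.5%, 38.5% and 23.1% higher and 42.3%, 42.3% and 34.6% lower, and whether these shares differ from those of all genes was not tested. The median log2 change of the 26 was -0.02, 0.07 and -0.07 in the 3 comparisons, against -0.01 for all genes tested in each. Changes of at least 1.5-fold were found for 5 members higher and 1 lower in SC07 against SC01 (15.5% and 14.9% of all genes). They were found for 3 higher and 4 lower in SC10 against SC01 (18.7% and 15.7%). In SC10 against SC07 they were found for 0 higher and 2 lower (10.4% and 6.01%). The libraries did not overlap for 21, 22 and 16 of the 26 members, where 67.4%, 69.1% and 53.4% of all genes tested did not overlap. The comparisons share libraries, so their values are set side by side below and are not independent of each other.

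**Figure D1:**
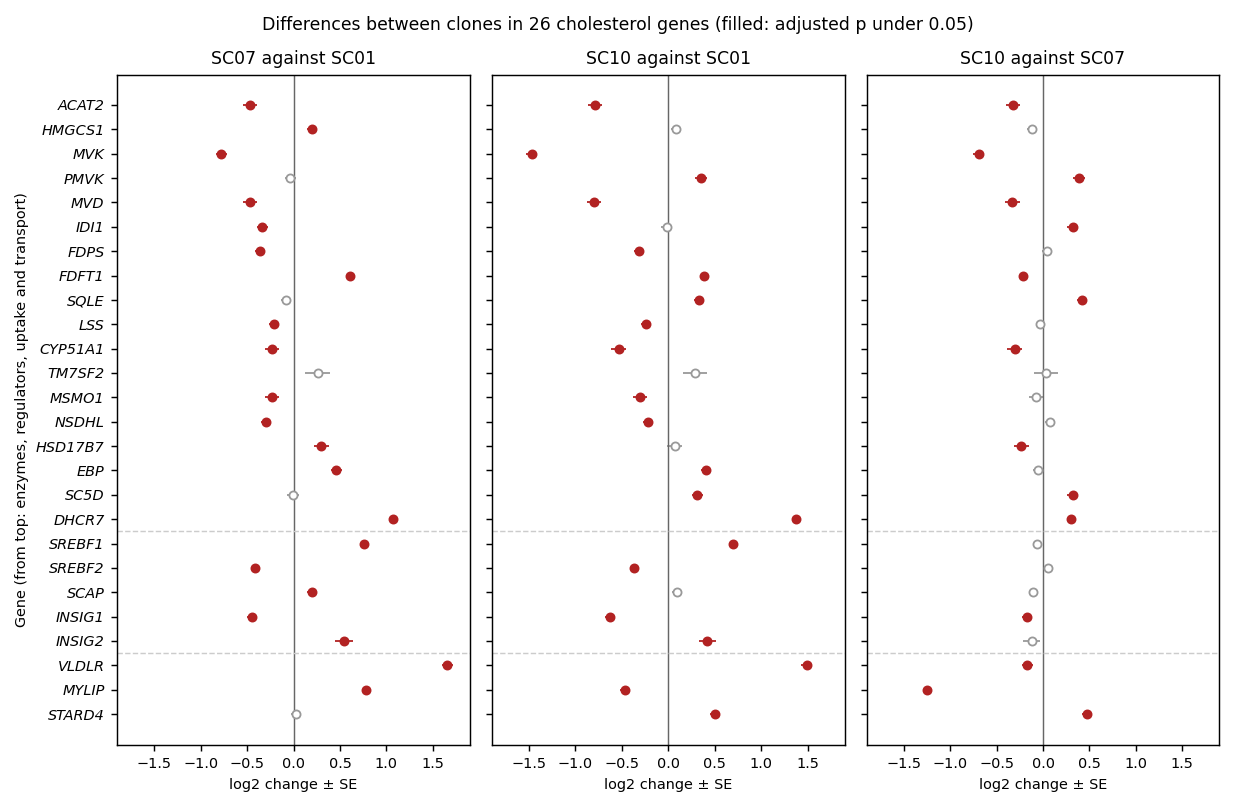
Log2 change (x axis, ± SE) of each of the 26 genes (y axis, in pathway order, then regulators, then uptake and transport) in the 3 comparisons of clones, with filled points past the adjusted threshold of 0.05 (edgeR). MVK lies at -0.78 and -1.47 against SC01, DHCR7 at 1.07 and 1.38 and VLDLR at 1.66 and 1.49, while most other genes lie within 1 unit of 0.

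The start regions of the genes with these patterns are printed because they are where SREBPs and their partner factors are known to bind. RefSeq windows on GRCh38.p14, of 250 bases before to 50 after each start site, were found for 23 members, with 29 windows in all. MVK, MVD and INSIG1 fell stepwise, DHCR7 and VLDLR were higher in SC07 and SC10, and SREBF2 encodes SREBP-2 itself. Sequences run 5′ to 3′ on the gene's strand, and capitals mark CCAAT boxes (CCAAT or its reverse, ATTGG, known to bind NF-Y) and the sterol regulatory element written TCACNCCAC, on either strand.
MVK, chr12:109573544-109573843, plus strand: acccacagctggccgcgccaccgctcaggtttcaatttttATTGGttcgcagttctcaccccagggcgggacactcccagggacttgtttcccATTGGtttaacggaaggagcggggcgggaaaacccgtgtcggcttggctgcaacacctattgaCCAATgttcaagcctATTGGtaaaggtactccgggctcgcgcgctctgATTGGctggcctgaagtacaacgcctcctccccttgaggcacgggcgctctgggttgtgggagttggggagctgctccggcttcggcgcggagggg
MVD, chr16:88663042-88663341, minus strand: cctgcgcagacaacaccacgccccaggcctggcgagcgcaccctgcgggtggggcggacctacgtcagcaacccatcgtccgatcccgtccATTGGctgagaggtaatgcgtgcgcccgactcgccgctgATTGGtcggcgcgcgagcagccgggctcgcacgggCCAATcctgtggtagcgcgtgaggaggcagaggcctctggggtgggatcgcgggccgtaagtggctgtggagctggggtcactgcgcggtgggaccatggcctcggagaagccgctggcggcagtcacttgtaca
INSIG1, chr7:155297628-155297927, plus strand: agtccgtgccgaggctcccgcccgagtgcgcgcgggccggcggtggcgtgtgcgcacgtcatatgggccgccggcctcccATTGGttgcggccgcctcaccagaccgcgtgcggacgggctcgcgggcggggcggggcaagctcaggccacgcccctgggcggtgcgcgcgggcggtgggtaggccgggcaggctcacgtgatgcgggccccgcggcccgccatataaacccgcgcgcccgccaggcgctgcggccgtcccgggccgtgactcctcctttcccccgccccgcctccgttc
DHCR7, chr11:71448344-71448643, minus strand: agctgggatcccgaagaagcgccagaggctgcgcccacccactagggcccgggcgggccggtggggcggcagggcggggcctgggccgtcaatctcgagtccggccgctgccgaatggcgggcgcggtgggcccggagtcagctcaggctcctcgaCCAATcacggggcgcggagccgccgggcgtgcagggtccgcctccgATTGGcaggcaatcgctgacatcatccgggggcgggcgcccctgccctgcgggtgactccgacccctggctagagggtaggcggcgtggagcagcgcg
VLDLR, chr9:2621537-2621836, plus strand: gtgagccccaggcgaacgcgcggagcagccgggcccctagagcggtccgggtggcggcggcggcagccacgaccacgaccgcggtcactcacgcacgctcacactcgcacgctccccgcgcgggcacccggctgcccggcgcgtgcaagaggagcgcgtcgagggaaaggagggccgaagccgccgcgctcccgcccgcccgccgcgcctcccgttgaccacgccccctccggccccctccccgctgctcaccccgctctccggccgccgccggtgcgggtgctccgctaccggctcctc
SREBF2, chr22:41832855-41833154, plus strand: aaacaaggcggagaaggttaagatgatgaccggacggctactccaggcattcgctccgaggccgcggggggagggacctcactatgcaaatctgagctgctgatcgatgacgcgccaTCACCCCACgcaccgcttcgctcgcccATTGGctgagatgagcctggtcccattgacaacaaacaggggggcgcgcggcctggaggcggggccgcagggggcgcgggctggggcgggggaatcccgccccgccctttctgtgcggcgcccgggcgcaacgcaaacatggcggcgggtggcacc

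The letters of the strict sterol element were found in 1 of the 29 windows, that of SREBF2, where TCACCCCAC is centred 129 bases before the start. Of 16596 windows of genes tested, 1.04% held them, as did 1.13% of all 35116 windows. A CCAAT box was found in 19 of the 29 windows (65.5%, some of which overlap within a gene), against 34.5% of windows of genes tested and 34.6% of all. The MVK window held 5 such boxes, that of MVD 3, the printed window of DHCR7 2, those of INSIG1 and SREBF2 1 each, and VLDLR none. A second DHCR7 window, chr11:71448994-71449293, held none either. The GC box GGGCGG, read on both strands and known to bind Sp1, was found in 27 of the 29 windows (93.1%), against 63.9% of windows of genes tested, and the E-box CACGTG in 5 (17.2%), against 9.24%. These are matches of letters and not measured binding. Sterol elements that differ from the letters searched would not have been found.

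Among the mevalonate genes, MVK showed the widest range. MVK encodes mevalonate kinase and lies on chromosome 12 (109573255 to 109598117, GRCh38). It measured 59.5, 57.2 and 62.6 CPM in the SC01 libraries, 35.8, 33.4 and 35.5 in SC07, and 23.3, 20.6 and 20.7 in SC10. The 3 clones formed 3 separate levels without overlap. Its log2 change was -0.78 ± 0.058 (SE) in SC07 against SC01 (adjusted p = 2.58e-12, edgeR), -1.47 ± 0.060 in SC10 against SC01 (4.46e-18) and -0.69 ± 0.062 in SC10 against SC07 (2.98e-10).

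MVD, on chromosome 16, encodes the decarboxylase that makes isopentenyl diphosphate. It measured 27.4, 26.1 and 23.6 CPM in SC01, 17.1, 18.4 and 20.2 in SC07, and 14.5, 13.9 and 15.9 in SC10. Its log2 change was -0.47 ± 0.076, -0.80 ± 0.077 and -0.33 ± 0.079 in SC07 against SC01, SC10 against SC01 and SC10 against SC07. ACAT2, on chromosome 6, encodes the cytosolic thiolase that joins acetyl-CoA units at the head of the pathway. It measured 19.5, 18.9 and 19.0 CPM in SC01, 14.0, 13.8 and 13.7 in SC07, and 11.1, 11.6 and 10.5 in SC10. In the same order of comparisons it changed by -0.47 ± 0.073, -0.79 ± 0.074 and -0.32 ± 0.076. For both genes each clone's libraries were apart from those of the other clones, and the adjusted p in edgeR's test was at most 0.00101 in each pair.

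The other genes of the mevalonate steps did not follow this order. HMGCS1, which encodes the cytosolic HMG-CoA synthase, had means over 3 libraries of 34.8 ± 0.95, 40.0 ± 0.95 and 36.8 ± 1.0 CPM in SC01, SC07 and SC10 (the ± of a mean is its SD, with n = 3 throughout). SC07 exceeded SC01 by a log2 difference of 0.20 ± 0.054 (adjusted p = 0.00181, edgeR), and this call was lost with total counts as the only scaling (0.10, adjusted p = 0.126). SC10 lay between, and its differences from SC01 (95% interval -0.03 to 0.18) and from SC07 (-0.23 to -0.02) did not pass the threshold (adjusted p = 0.204 and 0.0582, edgeR). PMVK, encoding phosphomevalonate kinase, measured 45.5 ± 0.91, 44.3 ± 2.0 and 58.0 ± 6.3 CPM. It was higher in SC10 than in SC01 (0.35 ± 0.061) and SC07 (0.39 ± 0.061), and SC10 replicate 3 was its highest library at 65.2 CPM, against 54.6 and 54.2 in the other SC10 libraries.

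The isoprenoid genes differed in their order. IDI1, the isomerase of isopentenyl diphosphate, was lowest in SC07, at 29.8, 29.5 and 28.5 CPM, against 38.7, 35.9 and 36.2 in SC01 and 33.7, 37.0 and 39.1 in SC10. SC01 and SC10 overlapped, with a log2 difference of -0.02 and a 95% interval of -0.13 to 0.10. FDPS, which makes farnesyl diphosphate, stood at 83.7 ± 1.7 CPM in SC01 and fell to 65.3 ± 2.8 and 67.2 ± 4.4 in SC07 and SC10, a log2 change of -0.36 ± 0.052 and -0.32 ± 0.052. FDFT1, the squalene synthase that commits farnesyl diphosphate to sterols, was higher instead. It measured 118, 123 and 122 CPM in SC01, 183, 179.9 and 189.6 in SC07, and 156, 156 and 163 in SC10. Its changes of 0.61 ± 0.043, 0.39 ± 0.043 and -0.22 ± 0.043 in the 3 comparisons all passed the threshold, with the largest adjusted p at 0.000109 (edgeR).

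Of the 10 sterol genes, 3 were higher and 4 lower in SC07 against SC01, 4 were higher and 4 lower in SC10 against SC01, and 3 were higher and 2 lower in SC10 against SC07. Among all genes tested, 62.0%, 65.9% and 47.9% were called in these comparisons, in either direction. DHCR7, on chromosome 11 (71428193 to 71452868), encodes the reductase that completes cholesterol. It measured 140.1, 148 and 157 CPM in SC01, 311, 297 and 329 in SC07, and 399, 383 and 373 in SC10. The clones did not overlap, and the ratio of means to SC01 was 2.11 in SC07 and 2.60 in SC10. The log2 changes were 1.07 ± 0.048 (adjusted p = 3.71e-17, edgeR), 1.38 ± 0.048 (1.45e-19) and, in SC10 against SC07, 0.30 ± 0.047 (5.44e-06).

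EBP, the isomerase of the sterol ring, measured 45.6, 49.1 and 48.0 CPM in SC01, 64.8, 63.0 and 68.7 in SC07, and 61.0, 59.5 and 68.8 in SC10. It was higher in SC07 (0.46 ± 0.056) and SC10 (0.41 ± 0.056) than in SC01, and these 2 clones overlapped (95% interval of their difference -0.16 to 0.05). SC5D, the sterol desaturase that acts just before DHCR7, was higher in SC10 (38.7 ± 1.5 CPM) than in SC01 (31.1 ± 0.55) and SC07 (31.01 ± 2.8). The difference of the last 2 clones had a 95% interval of -0.13 to 0.12 on the log2 scale. SQLE, the squalene epoxidase, likewise stood at 57.6 ± 1.7 CPM in SC10, 45.8 ± 2.3 in SC01 and 43.2 ± 1.7 in SC07, and its SC10 libraries lay above all the others. HSD17B7, a sterol ketone reductase, was higher in SC07 (17.5 ± 1.9 CPM) than in SC01 (14.2 ± 0.62). Its difference between SC10 and SC07 (-0.23, adjusted p = 0.0228, edgeR) was lost without SC07 replicate 3, SC10 replicate 1 or SC10 replicate 2 (adjusted p = 0.208, 0.0802 and 0.117).

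CYP51A1, the lanosterol demethylase, fell stepwise. It measured 15.2, 14.3 and 15.1 CPM in SC01, 12.8, 12.3 and 12.7 in SC07, and 10.8, 9.88 and 10.01 in SC10, changes of -0.23 ± 0.078, -0.53 ± 0.080 and -0.30 ± 0.080. The change in SC07 against SC01 (adjusted p = 0.0118, edgeR) was lost without SC07 replicate 2 (adjusted p = 0.0505). LSS, the lanosterol synthase, MSMO1, which removes methyl groups, and NSDHL, a sterol dehydrogenase, were lower in SC07 than in SC01 by 0.21 to 0.29 and in SC10 than in SC01 by 0.21 to 0.30 on the log2 scale. LSS had clone means of 87.1 ± 3.3, 75.2 ± 2.9 and 73.8 ± 3.6 CPM, MSMO1 of 24.995 ± 2.2, 21.3 ± 1.5 and 20.3 ± 0.89, and NSDHL of 42.7 ± 0.96, 34.8 ± 0.60 and 36.8 ± 1.7. None of these 3 differed past the threshold between SC10 and SC07, where their adjusted p in edgeR's test was 0.681, 0.431 and 0.243. The MSMO1 call in SC07 against SC01 (adjusted p = 0.00706, edgeR) was lost without SC01 replicate 3 or SC07 replicate 1 (adjusted p = 0.0614 and 0.0550). TM7SF2, a sterol reductase, had the lowest counts of the set. It measured 4.94 ± 0.45, 5.91 ± 0.66 and 6.03 ± 1.0 CPM in SC01, SC07 and SC10, and the 95% intervals of its log2 differences reached from 0.00 to 0.52, from 0.03 to 0.55 and from -0.22 to 0.28 before adjustment. In SC07 against SC01 the unadjusted p in edgeR's test was 0.0603.

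**Figure D2:**
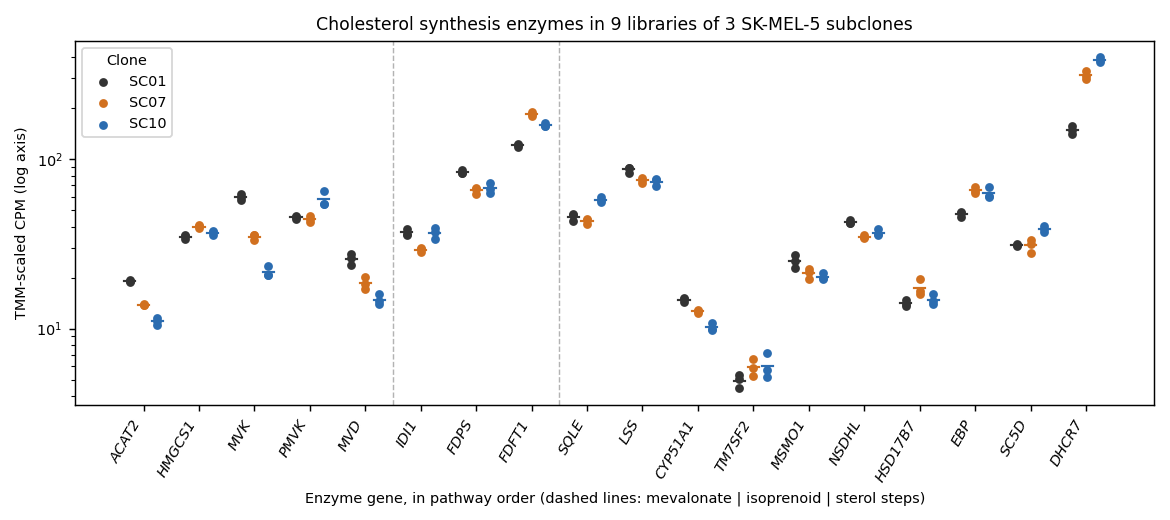
TMM-scaled CPM (y axis, log scale) of the 18 enzyme genes in pathway order (x axis) in each of the 9 libraries, with a bar at each clone's mean. ACAT2, MVK, MVD and CYP51A1 step down from SC01 to SC07 to SC10, and DHCR7 steps up from 148 to 312 to 385 CPM.

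Levels of different genes were compared per exon length, as TPM (transcripts scaled to a fixed total). Averaged over the clones, DHCR7 was the most abundant member, at 121 ± 5.2, 222 ± 9.7 and 262 ± 9.99 TPM in SC01, SC07 and SC10, although SREBF2 exceeded it in SC01 at 169 TPM. The least abundant was TM7SF2, whose clone means lay between 4.91 and 5.13 TPM. MVK lay at 31.3 ± 1.4, 15.9 ± 0.58 and 9.40 ± 0.69 TPM. The 18 enzymes together summed to 804 to 817 TPM in the SC01 libraries, 802 to 842 in SC07 and 835 to 874 in SC10, so the SC07 sums overlapped those of both other clones. In TMM-scaled CPM the sums were 870.4 to 906, 1018 to 1084 and 1089 to 1127 and did not overlap, while the median enzyme was at 39.0 to 40.4 CPM in SC01, above the 33.9 to 35.5 in SC07 and the 35.8 to 38.6 in SC10. DHCR7 and FDFT1 had the highest CPM of the 18, and the differences of the sums were not tested.

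The regulators split into pairs that moved apart. SREBF1, on chromosome 17 (17810399 to 17837002), encodes SREBP-1, which acts on both fatty acid and cholesterol genes. It measured 124, 127 and 119 CPM in SC01, 201, 203 and 223 in SC07, and 208, 195 and 199 in SC10. SREBF2, on chromosome 22 (41833079 to 41907308), encodes SREBP-2, which acts chiefly on cholesterol genes, and measured 365, 385 and 379 CPM in SC01, 279.7, 271 and 296 in SC07, and 303, 304 and 269 in SC10. For both genes SC01 stood apart from the other clones, in opposite directions, and SC07 and SC10 overlapped.

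SREBF1 was higher than in SC01 by 0.76 ± 0.047 in SC07 (adjusted p = 5.74e-14, edgeR) and by 0.70 ± 0.047 in SC10 (3.14e-13). SREBF2 changed by -0.42 ± 0.048 (1.95e-08) and -0.37 ± 0.048 (1.56e-07). Between SC10 and SC07 the 95% intervals were -0.15 to 0.03 for SREBF1 and -0.05 to 0.14 for SREBF2. Without SC10 replicate 3, the library that stood apart, SREBF2 was higher in SC10 than in SC07 by 0.11 (adjusted p = 0.00806, edgeR). Within a library, where scaling between libraries plays no part, the TPM of SREBF1 was 0.295 to 0.320 times that of SREBF2 in SC01, 0.677 to 0.709 times in SC07 and 0.604 to 0.697 times in SC10.

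INSIG1, on chromosome 7 (155297776 to 155310235), and INSIG2, on chromosome 2 (118088452 to 118110997), encode the anchors that retain SCAP, and INSIG1 is itself a known target of SREBPs. INSIG1 measured 111, 113 and 118 CPM in SC01, 82.2, 81.9 and 85.3 in SC07, and 71.8, 72.8 and 75.9 in SC10. INSIG2 measured 8.95, 8.22 and 7.81 CPM in SC01, 12.03, 13.04 and 11.3 in SC07, and 10.4, 12.4 and 10.8 in SC10. INSIG1 thus formed 3 separate levels, while INSIG2 was low in SC01 and overlapped between the other clones.

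The INSIG1 changes were -0.45 ± 0.045, -0.63 ± 0.046 and -0.18 ± 0.046 in SC07 against SC01, SC10 against SC01 and SC10 against SC07 (adjusted p = 1.19e-09, 1.38e-12 and 0.00212, edgeR). INSIG2 was higher than in SC01 by 0.54 ± 0.094 in SC07 and 0.42 ± 0.095 in SC10 (adjusted p = 1.37e-05 and 0.000336, edgeR). The TPM of INSIG1 was 13.5 to 16.3 times that of INSIG2 in the SC01 libraries, 6.80 to 8.13 times in SC07 and 6.36 to 7.64 times in SC10. SCAP, the escort protein, measured 92.7 ± 2.7, 106 ± 7.2 and 98.6 ± 4.0 CPM. It was higher in SC07 than in SC01 by 0.19 ± 0.050 (adjusted p = 0.00151, edgeR), a call lost with total counts as the only scaling (0.09, adjusted p = 0.120). In SC10 against SC01 its difference of 0.09 did not pass the threshold (adjusted p = 0.122, edgeR), but it did without SC10 replicate 3 (0.13, adjusted p = 0.0126). In SC10 against SC07 its difference of -0.10 (adjusted p = 0.0897, edgeR) passed without SC07 replicate 2 (-0.14, adjusted p = 0.0354).

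VLDLR had the largest differences from SC01 of the 26 genes. It lies on chromosome 9 (2621834 to 2660053) and encodes the receptor for very low density lipoprotein. It measured 14.0, 14.3 and 14.8 CPM in SC01, 45.1, 44.8 and 45.8 in SC07, and 39.8, 42.8 and 38.2 in SC10. The SC01 libraries were far below all others, at ratios of means of 3.15 for SC07 and 2.81 for SC10. The log2 changes were 1.66 ± 0.061 (adjusted p = 4.35e-19, edgeR) and 1.49 ± 0.061 (5.67e-18). SC10 was lower than SC07 by a small margin (-0.17 ± 0.056, adjusted p = 0.0147, edgeR), which was lost without SC10 replicate 1 or 3 (adjusted p = 0.0647 and 0.0732).

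MYLIP, on chromosome 6 (16129125 to 16148248), encodes the ligase that targets VLDLR and related receptors. It measured 40.2, 44.4 and 40.4 CPM in SC01, 71.2, 72.4 and 71.3 in SC07, and 30.3, 30.1 and 30.3 in SC10. It was thus highest in SC07 and lowest in SC10, and the difference between these clones (-1.25 ± 0.052, adjusted p = 3.52e-17, edgeR) was the largest of any member in SC10 against SC07. Against SC01 it changed by 0.78 ± 0.051 in SC07 and by -0.46 ± 0.053 in SC10. STARD4, a carrier of cholesterol between membranes, was higher in SC10, at 39.7, 40.1 and 39.0 CPM, than in SC01 (28.9, 27.7 and 27.2) and SC07 (28.8, 28.1 and 28.5). SC10 exceeded SC01 by 0.50 ± 0.055 and SC07 by 0.48 ± 0.055, while the 95% interval of SC07 against SC01 was -0.08 to 0.14.

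**Figure D3:**
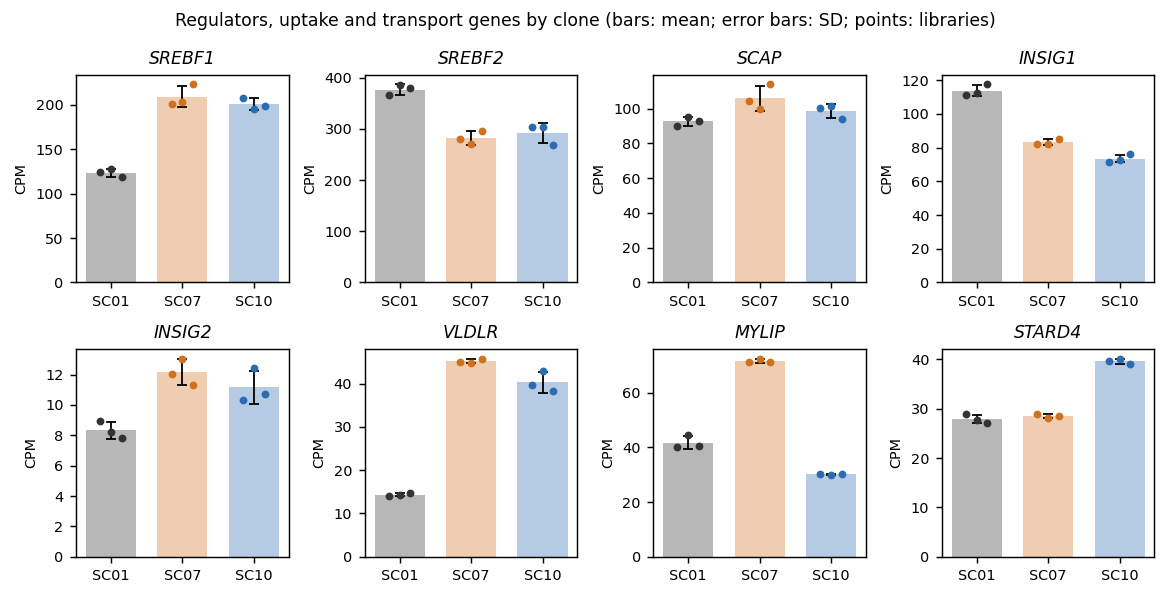
CPM (y axis, from 0) of the 8 regulator, uptake and transport genes in each clone (x axis), with bars at the mean, error bars of 1 SD and points for the 3 libraries. SREBF1 and VLDLR are low in SC01, SREBF2 and INSIG1 are high in SC01, MYLIP is highest in SC07 and STARD4 is highest in SC10.

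The rest of lipid metabolism was read through 6 further lists. Among all genes tested, 31.5% were higher and 30.5% lower in SC07 against SC01, and 33.5% and 32.4% in SC10 against SC01. In SC10 against SC07 these shares were 24.8% and 23.0%. Whether any of the lists differed from them was not tested. Of 15 genes of fatty acid synthesis and desaturation, which SREBP-1 is known to control, 9 were higher and 4 lower in SC07 against SC01, 4 were higher and 5 lower in SC10 against SC01, and 3 were higher and 6 lower in SC10 against SC07. The medians of their log2 changes were 0.36, -0.02 and -0.09. SCD, the stearoyl-CoA desaturase, measured 970.3 ± 22, 2103 ± 45 and 2110.1 ± 115 CPM in SC01, SC07 and SC10. ACSL3, which activates fatty acids, measured 280.2 ± 2.2, 694 ± 47 and 837 ± 16 CPM, and the elongase ELOVL6 18.7 ± 0.75, 38.8 ± 3.1 and 36.8 ± 0.23. All 3 were higher in SC07 and SC10 than in SC01, with log2 changes from 0.97 to 1.58. In SC10 against SC07, FADS1, a desaturase, was higher (140.2 ± 8.3 against 69.9 ± 3.0 CPM), while the fatty acid synthase FASN (753 ± 68 against 1163 ± 78) and AACS, which activates acetoacetate, (30.7 ± 3.1 against 45.5 ± 1.4) were lower.

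Of 10 further genes of SREBP processing and sterol-regulated degradation, 5 were higher and 4 lower in SC07 against SC01, 6 and 4 in SC10 against SC01, and 6 and 1 in SC10 against SC07. The ubiquitin ligase RNF139 measured 19.8 ± 0.079, 43.3 ± 2.2 and 49.6 ± 1.2 CPM in SC01, SC07 and SC10, and so rose against SC01 in both. ERLIN2, of a sterol-binding complex in the endoplasmic reticulum, measured 56.8 ± 1.5, 79.1 ± 1.5 and 112 ± 1.4 CPM, and its relative ERLIN1 was lower in SC07 than in SC01 by 0.43 on the log2 scale. SYVN1, a ligase of protein disposal, was higher in SC10 than in SC01 by 0.83 and than in SC07 by 0.51, and SPRING1, a helper of SREBP cleavage, was lower in SC10 than in SC07 by 0.36.

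Of 13 other receptors and uptake genes, 10 were tested. Of these, 6 were higher and 4 lower in SC07 against SC01, 6 and 4 in SC10 against SC01, and 3 and 3 in SC10 against SC07. LRP2 and LRP8, receptors of the same family as VLDLR, were lower in SC07 and SC10 than in SC01. Of the other LRP receptors listed, LRP1 and LRP6 were also lower in both clones, while LRP4 and LRP10 were higher in both. LRP2, or megalin, measured 56.4 ± 2.8, 3.11 ± 0.22 and 8.71 ± 1.3 CPM in SC01, SC07 and SC10, and LRP8 87.3 ± 1.1, 39.2 ± 1.4 and 45.6 ± 1.6. SORT1, a sorting receptor, measured 124 ± 3.9, 284 ± 1.5 and 256 ± 10 CPM, and SORL1, a related receptor, 11.8 ± 0.75, 19.4 ± 0.57 and 33.1 ± 5.7. LRPAP1, the chaperone of these receptors, was lower in SC10 than in SC07 by 0.36 on the log2 scale.

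Of 13 genes of intracellular cholesterol transport, 9 were higher and 3 lower in SC07 against SC01, with a list median of 0.405, and likewise 9 and 3 in SC10 against SC01, with a median of 0.45. In SC10 against SC07, 3 were higher and 3 lower. GRAMD1B, which moves cholesterol from the plasma membrane to the endoplasmic reticulum, rose from 196 ± 3.8 CPM in SC01 to 1541 ± 20 and 1758 ± 109 in SC07 and SC10. Its relative GRAMD1C and the lipid carrier STARD5 were higher in SC07 than in SC01 by 1.14 and 1.43 on the log2 scale. In SC01, SC07 and SC10, GRAMD1C measured 2.38 ± 0.42, 5.23 ± 0.59 and 4.76 ± 0.86 CPM. STARD5 measured 1.51 ± 0.19, 4.09 ± 0.33 and 4.84 ± 0.31 CPM. NPC1, which exports cholesterol from lysosomes, measured 273 ± 11, 149.8 ± 2.1 and 125 ± 10 CPM in SC01, SC07 and SC10, and the SC10 level was below both other clones. In SC10 against SC07, the lysosomal lipase LIPA was higher by 0.39 and OSBPL2, an oxysterol-binding protein, by 0.21.

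Of 10 genes of efflux, esterification and the sterol-activated LXR receptors, 9 were tested. Of these, 5 were higher and 2 lower in SC07 against SC01, 5 and 4 in SC10 against SC01, and 4 and 3 in SC10 against SC07. PLTP, a phospholipid transfer protein, measured 87.7 ± 2.0, 27.9 ± 0.29 and 56.3 ± 2.1 CPM in SC01, SC07 and SC10, and NCEH1, a cholesteryl ester hydrolase, 12.05 ± 1.6, 25.9 ± 1.4 and 30.1 ± 2.8. NR1H3, which encodes LXR-alpha, was higher in SC10 than in SC07 (17.8 ± 0.98 against 9.40 ± 0.23 CPM), as was the transporter ABCG4 (2.03 ± 0.32 against 0.653 ± 0.26).

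Of 15 genes of the isoprenoid branches that do not lead to sterol, 5 were higher and 7 lower in SC07 against SC01, 6 and 4 in SC10 against SC01, and 8 and 2 in SC10 against SC07. COQ2, of ubiquinone synthesis, measured 10.5 ± 0.28, 16.3 ± 1.3 and 18.6 ± 0.82 CPM. FNTB, a farnesyltransferase subunit, was higher in SC07 than in SC01 by 0.61 and lower in SC10 than in SC07 by 0.40, and its partner FNTA was higher in SC10 than in SC01 by 0.53. PDSS1, of the ubiquinone side chain, was higher in SC10 than in SC07 by 0.42, and so was RCE1, a protease of prenylated proteins, by 0.37. NUS1, of dolichol synthesis, was lower in SC07 than in SC01 by 0.47.

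**Figure D4:**
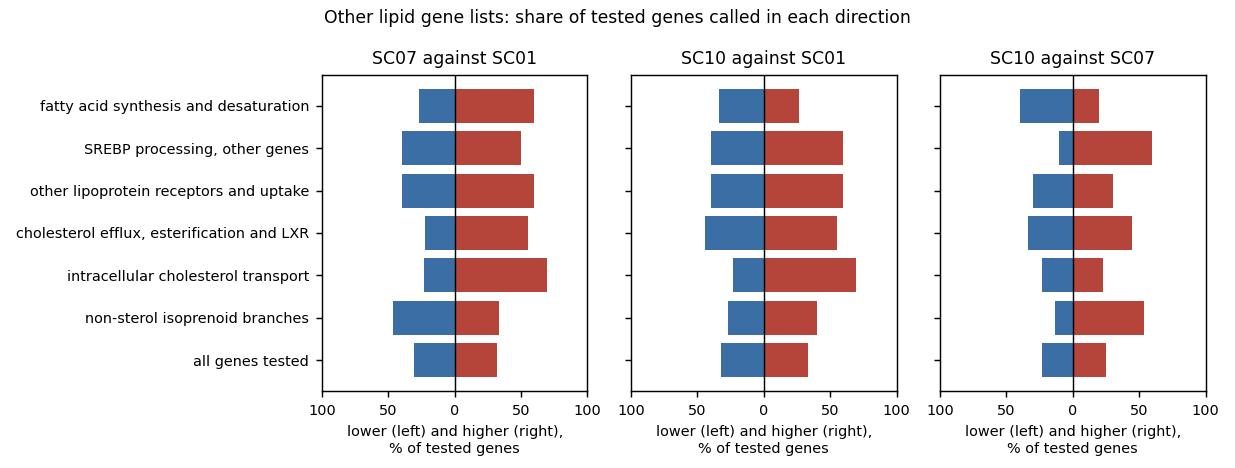
Share of tested genes called lower (left) and higher (right) past the adjusted threshold of 0.05 in each of 6 lipid gene lists and among all genes tested (y axis), in percent (x axis), for the 3 comparisons of clones. In SC07 and SC10 against SC01, 9 of 13 intracellular transport genes were higher, where 31.5% and 33.5% of all genes tested were.

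Position and overlap with other genes are given for several members with large changes. How the counting treated strand is not given in the sources used here, so reads of overlapping genes cannot be told apart. MVK starts 290 bases from MMAB, a gene of vitamin B12 metabolism on the opposite strand, which was singled out after its values were seen. Their start windows share 211 bases, and 4.72% of the exon bases of MVK overlap it. MMAB measured 49.9, 48.1 and 48.6 CPM in SC01, 27.7, 27.3 and 29.8 in SC07, and 21.9, 19.2 and 23.7 in SC10, a stepwise fall like that of MVK. Its log2 changes were -0.79 ± 0.064, -1.18 ± 0.066 and -0.39 ± 0.068 (adjusted p at most 2.81e-05, edgeR). The 20 nearest tested genes, 10 on each side of MVK, had median changes of -0.05, -0.37 and -0.34.

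The 20 neighbours of ACAT2 had medians of -0.51 in SC07 and -0.40 in SC10 against SC01. ACAT2 itself changed by -0.47, near the first median, and by -0.79, further than the second. These neighbours include TCP1, a chaperonin gene on the opposite strand that overlaps 9.2% of the exon bases of ACAT2. Its level, 171, 126 and 129 CPM in SC01, SC07 and SC10, was 894% to 1165% of that of ACAT2. TCP1 was also singled out after its values were seen, and it was lower in SC07 and SC10 than in SC01, by 0.44 and 0.41. In SC10 against SC07, where ACAT2 fell by 0.32, the difference of TCP1 was 0.03 (adjusted p = 0.609, edgeR) and the neighbours' median 0.04. Other partners, likewise chosen after their values were seen, differed from their members. RAI1, which overlaps 6.92% of the exon bases of SREBF1, changed by 0.39 in SC07 and -0.26 in SC10 against SC01, where SREBF1 changed by 0.76 and 0.70. STARD4-AS1, an antisense RNA at 8.65% to 21.6% of the CPM of STARD4, was lower in SC07 and SC10 than in SC01 (-0.89 and -0.81), where STARD4 stood at 0.03 and 0.50. MVD had no overlapping exon bases, and its 20 neighbours had medians of -0.14 and -0.29 against SC01, where MVD changed by -0.47 and -0.80. The 18 neighbours of VLDLR had medians of 0.34 and 0.72 against SC01, where VLDLR itself changed by 1.66 and 1.49. For DHCR7 the medians were 0.20 and 0.14, against 1.07 and 1.38 in the gene, and for MYLIP they were -0.31 and -0.31, against 0.78 and -0.46. The part of gene position in these differences was not tested. Of CYP51A1, 2 processed pseudogenes had counts of 9.49% to 15.2% of its level, and how reads shared between such copies were counted is not stated.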

How the data were processed

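The authors deposited raw counts per Ensembl gene for 9 libraries, 3 for each clone. The submitters' processing notes name HISAT2, featureCounts and GRCh38. Nothing on versions, annotation, strand or multiply matching reads is given in the sources used here. GENCODE 29 on GRCh38 gave names and positions for 57055 of the 60675 IDs. The 18009 genes that passed filterByExpr were scaled by TMM, and a robust quasi-likelihood model was fitted to the 9 libraries together (edgeR 4.0.16, R 4.3.3), with Benjamini-Hochberg adjustment over all genes tested and a threshold of 0.05. Standard errors came from the log2 change and its F statistic, and 95% intervals from these, without adjustment. The intervals used the normal distribution, so they are somewhat narrower than the F test would give. TPM used GENCODE 29 exon lengths. The fit was tested on simulated data.

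The members and lists were chosen with earlier results of these data known. Every member is named, and from each further list up to 3 genes with the largest change past the threshold per comparison and a mean of at least 1 CPM in the higher clone, whose changes all passed it. Some genes of the pathway and of the lists are not reported here. The alternatives tried included other scalings and filters, DESeq2 1.42.0, a test against a 1.5-fold change, pairs of clones alone, a replicate block, leaving out each library, and leaving out mitochondrially encoded genes.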

Additional observations from a re-analysis of the deposited data

How the results depend on the processing

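Under DESeq2, DESeq2 size factors in edgeR, a minimum of 1 CPM in 3 libraries, the fit of each pair of clones alone and the replicate block, every member kept its direction and its side of the threshold in all 3 comparisons. Same-numbered libraries of different clones had correlations of deviations of -0.0195 to 0.0429, and differently numbered ones of -0.0406 to 0.0219. Of 18 best matches, 10 had the same number, and whether the numbers pair the libraries was not tested. With the replicate block 10 members were higher and 11 lower in SC07 against SC01, 10 and 11 in SC10 against SC01, 6 and 9 in SC10 against SC07, and 25 differed among the clones.

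Against a minimum change of 1.5-fold, 4 members were higher and 1 lower in SC07 against SC01 (10.98% and 9.58% of all genes tested), 3 and 3 in SC10 against SC01 (13.7% and 9.53%), and 0 and 1 in SC10 against SC07 (5.51% and 2.504%; edgeR, where 0 and 2 members had an unadjusted p under 0.05). Leaving out a library gave 10 to 11 higher and 10 to 12 lower, 10 to 11 and 11 to 11, and 6 to 7 and 7 to 10. With total counts only, the median of all genes lay at -0.12 in both comparisons with SC01, PMVK and SQLE were called lower in SC07 against SC01 (adjusted p = 0.0485 and 0.00213, edgeR), and uncalled values changed sign for STARD4 in SC07 against SC01 (-0.080) and for HMGCS1 (-0.033), HSD17B7 (-0.044) and SCAP (-0.022) in SC10 against SC01. Without a filter, SC5D in SC07 against SC01 lay at 0.0057. Leaving out a library also turned uncalled values near 0 for SC5D in SC07 against SC01 (-0.053 to 0.064), IDI1 in SC10 against SC01 (-0.061 to 0.046), and LSS (-0.056 to 0.021) and TM7SF2 (-0.11 to 0.13) in SC10 against SC07. TM7SF2 was called higher in SC07 against SC01 without SC07 replicate 2 (0.35) and in SC10 against SC01 without SC01 replicate 2 (0.35), without SC10 replicate 2 (0.39) and without mitochondrially encoded genes (0.30). SQLE was called lower in SC07 against SC01 without SC01 replicate 1 (-0.14). The cause of these shifts was not tested. TM7SF2, the shallowest member, had counts of 162 or more per library.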
